A study of Mus musculus with 24 samples.

Results

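Gabpa, Ets2, Prdm15, Zbtb21, Runx1, Ripply3 and Sim2 are 7 genes for transcriptional regulators that lie in the segment of mouse chromosome 16 (Mmu16) present in 3 copies in Ts65Dn mice. They were chosen by name and looked up by Ensembl identifier among the 55385 genes counted, and all 7 were found. Transcription factors bind short DNA sequences near other genes and raise or lower their transcription, often together with partner proteins. The dose of such a regulator is therefore of interest beyond its own locus, and the comparisons below ask how the level of each gene differed with the extra copy and how each fold change compared with 1.5, the ratio of 3 copies to 2.

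RNA was sequenced from the hippocampus (HIP) and the entorhinal cortex (EC) of 6 male Ts65Dn mice and 6 male wild-type (wt) littermates aged 5 to 6 months, so that each of 12 mice gave 1 library from either region. Ts65Dn mice, a model of Down syndrome, carry a minichromosome that holds the Mmu16 segment together with the centromere end of chromosome 17 (Mmu17), whose genes thus also have an extra copy. Wt littermates lack the minichromosome, and both groups share the mixed B6C3B background, in which the C3B parent is a C3H/HeN line that carries the BALB/c form of Pde6b. No mouse received a drug or a transgene. Pieces of whole tissue were sequenced, so fewer cells of a type and less RNA per cell cannot be told apart.

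The libraries held between 23128589 and 40476492 counts on genes. The segment was taken from the start of Mrpl39 to the end of Zbtb21 (chr16:84717576-97962622 of GRCm38), a stretch of 13.2 Mb with 285 annotated genes, of which 90 (HIP) and 87 (EC) passed the filter on low counts. As a median over these genes, the ratio to the wt mean was 1.44 to 1.54 in the HIP of 5 Ts65Dn mice and 1.47 to 1.54 in their EC. The mouse labelled Ts65Dn replicate 3 stood apart, with medians of 1.02 (HIP) and 1.002 (EC), inside or just above the wt ranges of 0.980 to 1.01 (HIP) and 0.981 to 1.01 (EC). Its label was kept, and the genotype results of the genes are given with and without it. Hippocampal markers separated the regions as labelled. The summed level of 4 hippocampal markers (Prox1, C1ql2, Dsp and Zbtb20) was 525 to 745 CPM (counts scaled to library size) in the wt HIP against 67.0 to 83.1 CPM in the wt EC. Choroid plexus markers varied widely among the HIP libraries of both genotypes, from 59.0 to 4665 CPM in wt and from 19.9 to 4893 CPM in Ts65Dn.

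The 7 genes lie along the whole segment. Gabpa (ENSMUSG00000008976, chr16:84834925-84863779, + strand) is 0.12 Mb from its start, and Prdm15 (ENSMUSG00000014039, chr16:97791467-97851850, − strand) and Zbtb21 (ENSMUSG00000046962, chr16:97943357-97962622, − strand) are at its far end. Runx1 (ENSMUSG00000022952, chr16:92601466-92826149, − strand), Sim2 (ENSMUSG00000062713, chr16:94084931-94127032, + strand), Ripply3 (ENSMUSG00000022941, chr16:94328420-94336935, + strand) and Ets2 (ENSMUSG00000022895, chr16:95702075-95721051, + strand) lie between them. All are annotated as protein coding. Zbtb21 overlaps C2cd2 on the same strand over 19242 of its 19266 bp, so its count is uncertain, since reads of the shared stretch may have been split or dropped. Gabpa overlaps Atp5j, on the opposite strand, by 701 bp.

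Gabpa and Atp5j, which encodes a subunit of the mitochondrial ATP synthase, are read in opposite directions, with nearest start sites 148 bases apart in RefSeq. RefSeq lists a second Atp5j start, which lies inside Gabpa. The DNA between the Gabpa start and the nearer Atp5j start is shown because it holds the core site of the ETS family, to which the Gabpa protein itself belongs. The letters searched were CCGGAAG on both strands, found in 8.86% of 32851 mouse promoters of the same length (250 bases before to 50 after a start). Among the 7 promoters listed for 5 of the 7 genes, 2 held it, those of Gabpa and Prdm15. The Gabpa sequence is chr16:84834977-84835123 on the + strand, and the Prdm15 sequence is chr16:97851831-97851859 on the − strand, where the core begins 2 bases after the start site. Both are from RefSeq on GRCm38.p6, 5′ to 3′, with the core in capitals as read on the printed strand.
Gabpa to Atp5j interval: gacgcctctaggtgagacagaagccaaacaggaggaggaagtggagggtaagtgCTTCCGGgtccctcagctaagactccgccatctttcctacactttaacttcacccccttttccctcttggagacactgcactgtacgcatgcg
Prdm15 start: cgcccccccggCTTCCGGtgctgcgcagt
The RUNX core, TGTGGT, was present in promoters of Runx1 and Zbtb21 (16.8% of all promoters), and the bHLH-PAS core, ACGTG, in promoters of the same 2 genes (19.6%). These matches describe letters in a window and are not measured binding. No promoter of Sim2 or Ripply3 was used here.

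The levels spanned a wide range. Per length of exon, wt HIP means were 13.0 ± 1.3 CPM per kb for Ets2, 6.00 ± 0.37 for Gabpa, 3.13 ± 0.18 for Zbtb21 and 1.38 ± 0.11 for Prdm15 (SD, n = 6). Runx1, Ripply3 and Sim2 were far lower, at 0.080 ± 0.019, 0.17 ± 0.058 and 0.041 ± 0.023 CPM per kb. In the wt EC the order was the same, from 17.0 ± 0.9 CPM per kb for Ets2 to 0.022 ± 0.014 for Sim2. The 4 abundant genes did not overlap one another or the 3 scarce ones in either region of wt mice. Ripply3 and Runx1 overlapped in both regions, and Runx1 and Sim2 overlapped in the HIP but not in the EC.

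**Figure D1:**
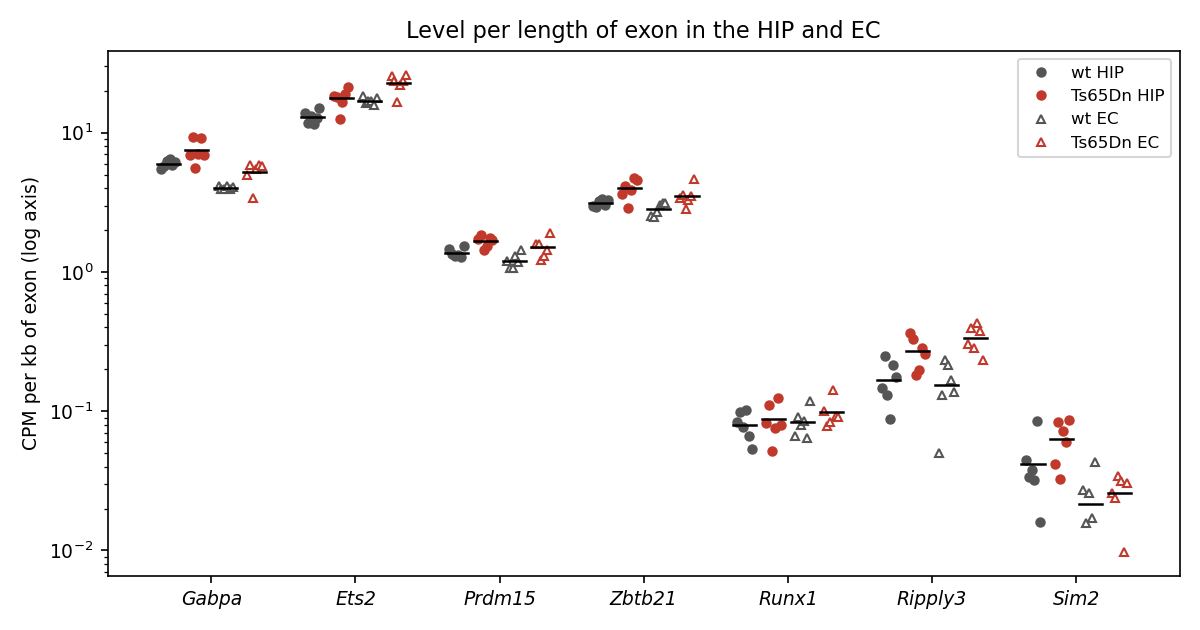
Level of each gene per length of exon (CPM per kb, log axis) in every library, with circles for the HIP, triangles for the EC, grey for wt, red for Ts65Dn and bars for group means of 6. The 1 wt EC library with 0 counts of Sim2 cannot be drawn on a log axis. Ets2 is the highest and Sim2 the lowest in each group.

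The 2 ETS factors came first in level. Gabpa encodes the DNA-binding subunit of GABP (also called nuclear respiratory factor 2), which drives many nuclear genes for mitochondrial proteins. In the HIP its level ran from 31.1 to 36.9 CPM in wt mice (median 34.1) and from 31.9 to 53.1 CPM in Ts65Dn mice (median 39.7). In the EC it ran from 22.3 to 23.7 CPM in wt mice (median 22.8) and from 19.3 to 33.5 CPM in Ts65Dn mice (median 32.2). In both regions 5 of 6 Ts65Dn mice lay above the highest wt mouse, and the mouse below was replicate 3, at 0.934 of the wt mean (HIP) and 0.844 of it (EC). The HIP fold change was 1.25 (95% CI 1.06 to 1.46) and the EC fold change 1.30 (1.10 to 1.53). Neither passed an adjusted p of 0.05 with edgeR's quasi-likelihood test (adjusted p = 0.175 and 0.0849). Without replicate 3 the folds were 1.31 (adjusted p = 0.0502, edgeR) and 1.39 (adjusted p = 0.000373, edgeR). Since replicate 3 was the lowest Ts65Dn mouse for Gabpa in both regions, these values only describe the other 5 mice.

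Ets2 encodes an ETS factor that is activated downstream of Ras and MAP kinases. Its HIP level ran from 67.1 to 87.3 CPM in wt mice (median 74.7) and from 72.9 to 123 CPM in Ts65Dn mice (median 105). In the EC it ran from 91.6 to 106 CPM in wt mice (median 97.0) and from 95.5 to 151 CPM in Ts65Dn mice (median 136). Again 5 of 6 Ts65Dn mice were above every wt mouse in both regions, and replicate 3, at 0.968 and 0.971 of the wt mean, was within the wt range. In the HIP its fold change was 1.35 (1.16 to 1.57, adjusted p = 0.0684 with edgeR), and it was 1.34 (1.17 to 1.53, adjusted p = 0.0285 with edgeR) in the EC. Ets2 in the EC was thus the only gene of the 7 that edgeR called with all mice, and the call was lost in 6 of 12 fits with 1 mouse removed (adjusted p up to 0.0755, edgeR), those without wt replicates 3, 4 or 5 or Ts65Dn replicates 1, 2 or 4. Without Ts65Dn replicate 3 the folds were 1.43 (adjusted p = 0.00276, edgeR) in the HIP and 1.41 (adjusted p = 0.000141, edgeR) in the EC.

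The 2 zinc finger proteins are encoded at the far end of the segment. Prdm15 encodes a protein with a PR domain and zinc fingers that regulates transcription in early embryos. Its HIP level ran from 14.4 to 17.5 CPM in wt mice (median 15.1) and from 16.4 to 21.1 CPM in Ts65Dn mice (median 19.4). In the EC it ran from 12.0 to 16.4 CPM in wt mice (median 13.5) and from 13.8 to 21.8 CPM in Ts65Dn mice (median 17.2). The groups overlapped, with 4 Ts65Dn mice in the HIP and 3 in the EC above the highest wt mouse. The HIP fold change was 1.21 (1.09 to 1.35, adjusted p = 0.0925 with edgeR), with 1.25 (1.06 to 1.47, adjusted p = 0.135 with edgeR) in the EC. Without replicate 3 it was 1.24 (adjusted p = 0.0363, edgeR) and 1.30 (adjusted p = 0.0736, edgeR).

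Zbtb21 encodes a BTB zinc finger protein that acts mainly as a repressor. Its HIP level ran from 18.6 to 21.2 CPM in wt mice (median 19.8) and from 18.3 to 30.1 CPM in Ts65Dn mice (median 25.5). In the EC it ran from 15.8 to 19.9 CPM in wt mice (median 18.2) and from 17.8 to 29.2 CPM in Ts65Dn mice (median 21.9). All Ts65Dn mice but replicate 3 lay above the wt range in both regions, and replicate 3 was at 0.924 of the wt mean in the HIP and 0.993 in the EC. Zbtb21 had a fold change of 1.27 (1.09 to 1.48, adjusted p = 0.125 with edgeR) in the HIP and of 1.24 (1.06 to 1.45, adjusted p = 0.127 with edgeR) in the EC. Without replicate 3 it was 1.34 (adjusted p = 0.0134, edgeR) and 1.29 (adjusted p = 0.0608, edgeR).

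The 3 scarce genes encode regulators best known from development. Runx1, the runt-domain factor of blood formation that binds DNA with Cbfb, had 18 to 50 counts per HIP library and 21 to 52 per EC library. Its HIP level ran from 0.642 to 1.22 CPM in wt mice and from 0.624 to 1.49 CPM in Ts65Dn mice, with medians of 0.964 and 0.970 CPM. The groups lay over each other in both regions, with 2 Ts65Dn mice in the HIP and 1 in the EC above the wt range. For Runx1 the fold change was 1.09 (0.777 to 1.52, adjusted p = 0.855 with edgeR) in the HIP, with 1.16 (0.871 to 1.56, adjusted p = 0.596 with edgeR) in the EC, intervals that hold both 1 and 1.5. Without replicate 3 the folds were 1.17 (0.857 to 1.60, adjusted p = 0.614 with edgeR) and 1.198 (0.881 to 1.63, adjusted p = 0.537 with edgeR). At this depth neither an unchanged level nor a 1.5-fold rise could be set aside. Runx1 is also expressed by microglia, and of 8 microglial markers 1 fell in both regions, P2ry12, a receptor of resting microglia (folds of 0.831 and 0.733, adjusted p = 0.0422 and 0.0226 with edgeR, and 0.0483 and 0.0309 without replicate 3). Over all genes edgeR called 0.501% (HIP) and 1.35% (EC) lower. The 8 markers did not move as a set, with a median log2 fold change of -0.03 (HIP) and -0.08 (EC). Their values ran from -0.27 to 0.18 (HIP) and from -0.45 to 0.16 (EC). At an unadjusted p under 0.05, 1 was higher and 1 lower in the HIP (7.23% and 7.59% of all genes). In the EC 0 were higher and 1 lower (9.01% and 9.97%). The summed marker level was 286 to 327 CPM in wt and 269 to 310 CPM in Ts65Dn in the HIP, and 313 to 431 CPM and 295 to 384 CPM in the EC. Its part in the Runx1 values was not tested.

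Ripply3 encodes a small repressor that binds Tbx1 and the Groucho (Tle) co-repressors. It had 2 to 16 counts in wt libraries and 7 to 20 in those of Ts65Dn, and it passed the EC filter through its Ts65Dn level, so that its EC values are a description. Its EC level ran from 0.076 to 0.36 CPM in wt mice (median 0.23) and from 0.35 to 0.66 CPM in Ts65Dn mice (median 0.52), with 5 of 6 Ts65Dn mice above the wt range. Here replicate 3 was not at the wt level, at 1.83 times the wt mean. The fold change in the EC was 2.09 (1.36 to 3.22), and it was 2.16 without replicate 3. In the HIP, where Ripply3 did not pass the filter with all mice, the mean log2 CPM (with a prior count of 2) was 0.58 higher in Ts65Dn (exact permutation test, p = 0.0281), and 4 Ts65Dn mice lay above the wt range. Without replicate 3 that difference was 0.67 (exact permutation test, p = 0.0173).

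Sim2, a bHLH-PAS factor that pairs with Arnt and is needed in the embryo, was near the limit of detection. It had 2 to 12 counts in wt and 4 to 12 in Ts65Dn HIP libraries, and 0 to 5 and 1 to 4 in EC libraries. A count of 0, in 1 wt EC library, allows up to 3 counts. Its log2 CPM differed between Ts65Dn and wt by 0.49 for the HIP (exact permutation test, p = 0.128) and for the EC by 0.22 (exact permutation test, p = 0.50). Without replicate 3 this came to 0.62 for the HIP (exact permutation test, p = 0.0584) and, for the EC, 0.17 (exact permutation test, p = 0.649). Of the 12 Ts65Dn values 1 lay outside the wt range, above it in the HIP, and no difference was detectable at this depth.

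**Figure D2:**
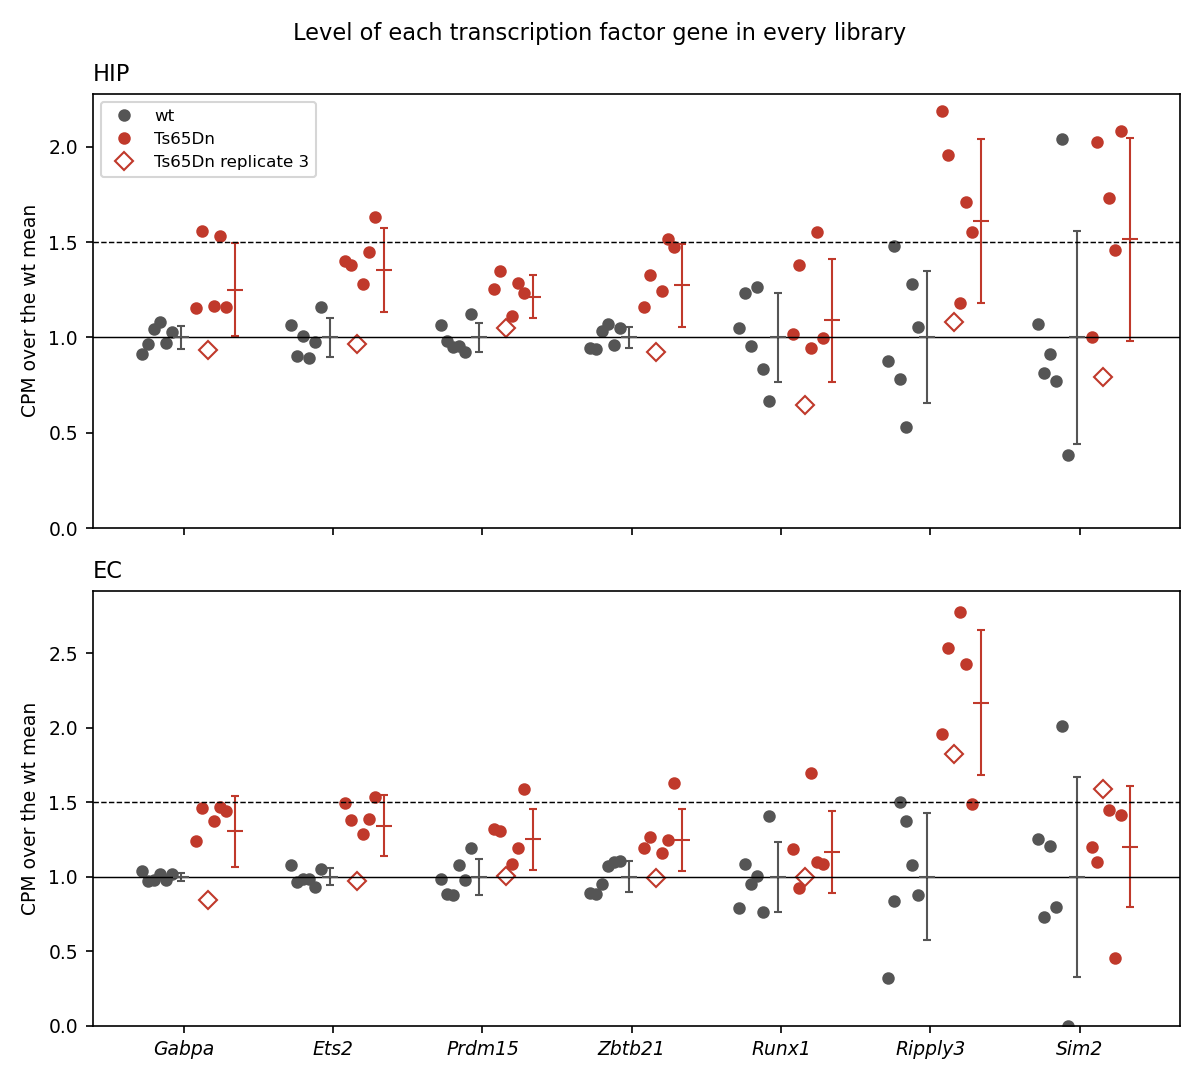
CPM of each gene in every library over the wt mean of the region, with HIP above and EC below, grey points for wt, red points for Ts65Dn, open diamonds for Ts65Dn replicate 3 and bars for the mean ± SD of 6. The dashed line marks 1.5. For Gabpa, Ets2 and Zbtb21 the 5 red points lie above the grey ones in both regions while the diamond lies among or below them. The median over the segment in these 5 mice was 1.44 to 1.54 (HIP) and 1.47 to 1.54 (EC). How many other segment genes separate in this way was not counted.

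Of the 5 genes that passed the filter in the HIP, 0 were called higher with edgeR in the full comparison, against 0.542% of all genes. At an unadjusted p under 0.05, 4 of them were higher, against 7.23% of all genes, and DESeq2 called 3 higher (Ets2, Prdm15 and Zbtb21), against 1.66%. Of the 6 tested in the EC, 1 was called with edgeR, against 1.15% of all genes. Here Gabpa, Ets2, Prdm15 and Zbtb21 had an unadjusted p under 0.05 and a higher level, against 9.01% of all genes. Ripply3 did so too but is left out of this comparison, since it entered through its Ts65Dn level. DESeq2 called 2 (Ets2 and Gabpa), against 3.25%. Without replicate 3 the counts were 3 of 6 in the HIP (Ets2, Prdm15 and Zbtb21), where 1.06% of all genes were called higher, and 2 of 6 in the EC (Ets2 and Gabpa), where 1.42% were. Without Ts65Dn replicate 6 the EC count was also 2, but one of them was Ripply3, whose call is no support. The 6 genes tested in the EC include Ripply3. Without replicate 3 Ripply3 also passed the HIP filter, at a fold of 1.67, and is among the 6 genes tested there. None of those tested was called lower in either region. Among all tested genes of the segment, edgeR called 42 of 90 (HIP) and 43 of 87 (EC) higher with all mice. Without replicate 3 it called 58 of 92 (HIP) and 62 of 89 (EC). The edgeR calls of the transcription factor genes given above are thus no excess over the segment.

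Each fold change was then compared with 1.5. In the HIP, Prdm15 (adjusted p = 0.00123), Gabpa (adjusted p = 0.0335) and Zbtb21 (adjusted p = 0.0395) were below 1.5-fold by edgeR. In the EC, Zbtb21 (adjusted p = 0.0261) and Prdm15 (adjusted p = 0.0347) were below it. These p-values were adjusted over all genes, of which 83.4% (HIP) and 84.8% (EC) differed from 1.5-fold, since most genes have 2 copies in both genotypes. They include replicate 3, whose segment was at the wt level, which lowers the folds of segment genes in general. The segment had a median fold of 1.41 (HIP) and 1.42 (EC) with all mice and 1.48 in both without it. A fold below 1.5 with all mice is thus partly built in. Adjusted over the tested genes of the segment, Prdm15 in the HIP was the only one of the 7 left below 1.5-fold (adjusted p = 0.0485 with edgeR, and 0.0367 without replicate 3). With all mice, this adjustment placed 2 segment genes below 1.5-fold out of 90 (HIP), Prdm15 among them. For the EC it placed 2 out of 87 below 1.5-fold, 0 of them among the 7. Without replicate 3 and over all genes, Prdm15 in the HIP was again the only one (adjusted p = 0.00241 with edgeR). Gabpa and Zbtb21 in the HIP then had adjusted p of 0.0623 and 0.0601 (edgeR). Zbtb21 and Prdm15 in the EC had 0.0561 and 0.0764 (edgeR). With 1 mouse removed, the number of genes below or above 1.5-fold over all genes ran from 1 to 4 in the HIP (1 without wt replicates 3 or 4 or Ts65Dn replicates 1, 3 or 4) and from 0 to 3 in the EC (0 without wt replicates 4 or 6 or Ts65Dn replicate 3). Ets2 was not distinguishable from 1.5-fold in either region (adjusted p = 0.177 and 0.0964 with edgeR), nor was Runx1 (0.0681 and 0.0951).

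**Figure D3:**
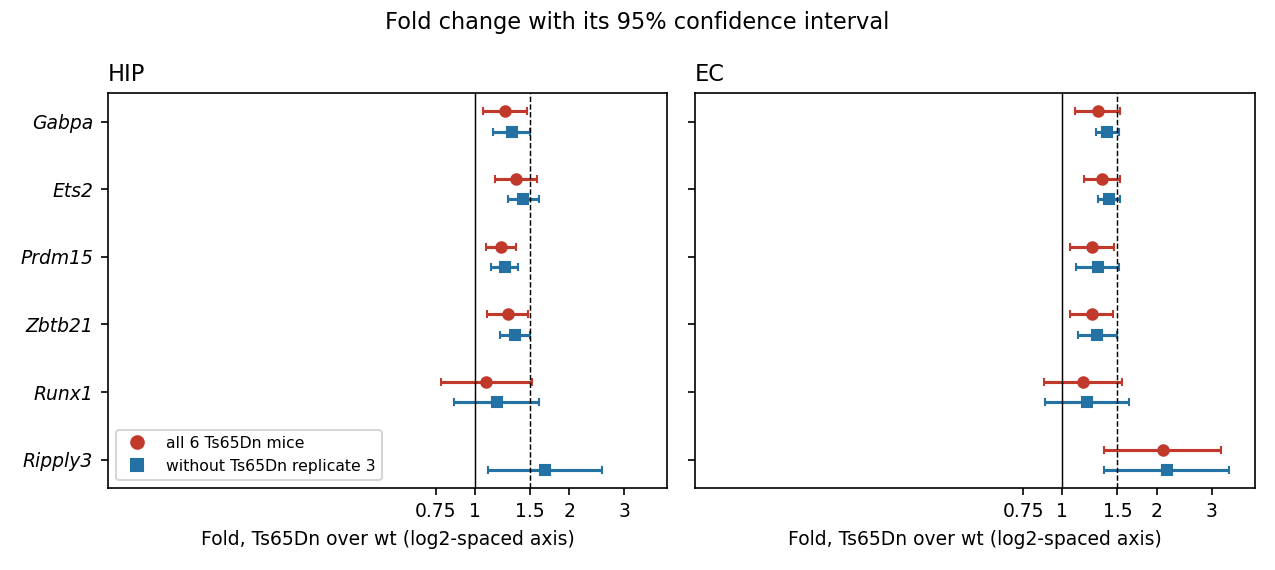
Fold change of Ts65Dn over wt with its 95% confidence interval for the genes that passed the filter, on a log2-spaced axis, with all 6 Ts65Dn mice in red and without replicate 3 in blue. The solid line marks 1 and the dashed line 1.5. The intervals of Prdm15 in the HIP and of Zbtb21 in both regions end below 1.5 with and without replicate 3. Those of Gabpa in the HIP and Prdm15 in the EC do so with all mice only, and those of Runx1 cross both lines. The intervals are not adjusted for the number of genes.

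Each gene was also set against the mean log2 level of the other tested genes of the segment in the same library. The median fold of the segment was 1.41 (HIP) and 1.42 (EC), and 1.48 in both regions without replicate 3. Relative to the segment, Prdm15 was at 0.867 of its wt value in the HIP (exact permutation test, p = 0.00866, adjusted over the 90 genes p = 0.195), with 5 of 6 Ts65Dn mice below every wt mouse. The size of this difference depended on the reference, since it was -0.21 on the log2 scale against the mean of the other genes and -0.10 against their median (exact permutation test, adjusted p = 0.637). Runx1 was at 0.765 in the HIP (exact permutation test, p = 0.0498), while Gabpa was at 0.913 in the EC (exact permutation test, p = 0.0325), neither of which passed after adjustment (p = 0.529 and 0.257). Ets2 was close to the segment, at 0.962 (HIP) and 0.949 (EC), and Zbtb21 was at 0.902 and 0.882. Without replicate 3 these HIP ratios were 0.849 for Prdm15, 0.797 for Runx1, 0.889 for Gabpa, 0.977 for Ets2 and 0.913 for Zbtb21. The EC ratios were then 0.864 for Prdm15, 0.791 for Runx1, 0.930 for Gabpa, 0.947 for Ets2 and 0.863 for Zbtb21. Ripply3, which the filter kept through its Ts65Dn level, was at 1.42 in the EC and at 1.37 without replicate 3. After adjustment 0 of the 90 HIP genes (0%) and 0 of the 87 EC genes (0%) differed from the segment, so that the unadjusted values describe these mice only. The smallest p that 924 splits can give is 0.00216. A single gene at that p cannot pass after adjustment over 90 or 87 genes, so the counts of 0 cannot show that the genes follow the segment.

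**Figure D4:**
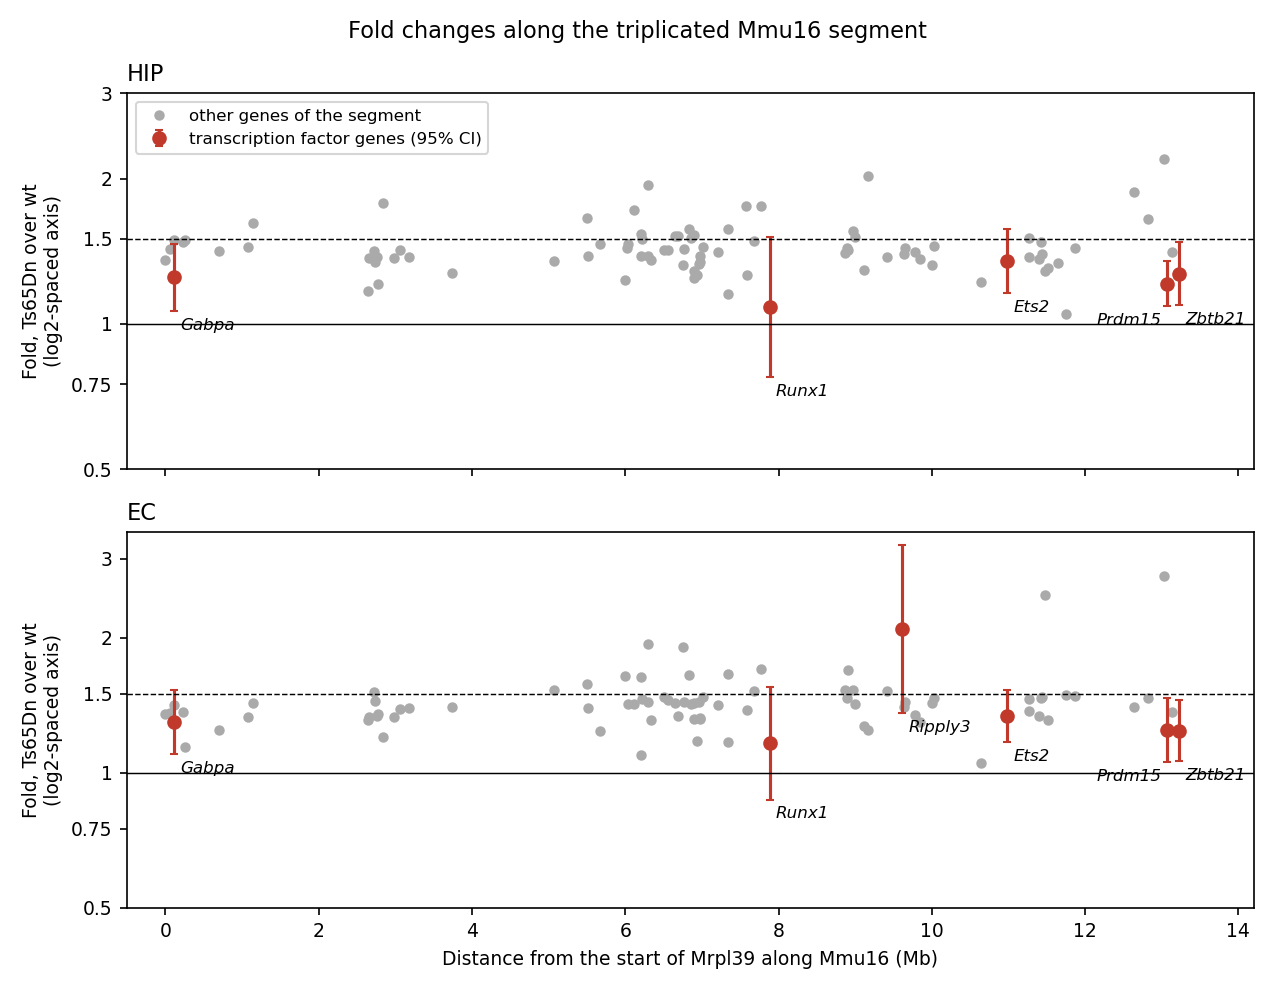
Fold change of Ts65Dn over wt (log2-spaced axis) against distance from the start of Mrpl39 along Mmu16, with HIP above and EC below, grey points for other tested genes of the segment and red points for the transcription factor genes with their 95% confidence intervals. Lines mark 1 and 1.5. All red points except Ripply3 in the EC lie below the dashed line. Most grey points do so as well, since the upper quartile of all tested genes of the segment was 1.49 (HIP) and 1.47 (EC).

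The nearest tested genes on either side had folds of their own. Atp5j, across the interval printed above from Gabpa, rose 1.49-fold in the HIP and 1.42-fold in the EC (adjusted p = 0.00986 and 0.00862 with edgeR). App, the amyloid precursor gene on the other side of Gabpa, rose 1.48-fold and 1.37-fold (adjusted p = 0.0267 and 0.0228 with edgeR). Without replicate 3 both had a HIP fold of 1.58, and their EC folds were 1.46 and 1.45. Within libraries, the ratio of Gabpa to Atp5j was lower in Ts65Dn by a factor of 0.834 in the HIP (exact permutation test, p = 0.0411). In the EC this factor was 0.900 (exact permutation test, p = 0.184), and neither passed after adjustment over the 4 comparisons with overlapping neighbours (adjusted p = 0.0823 and 0.186), with factors of 0.822 and 0.946 without replicate 3. For Zbtb21 over C2cd2 the factors were 0.899 and 0.907 (exact permutation test, adjusted p = 0.0823 and 0.186), and C2cd2 itself rose 1.41-fold and 1.37-fold (adjusted p = 0.0299 and 0.0182 with edgeR). Without replicate 3 these factors were 0.899 and 0.907, and C2cd2 had folds of 1.49 and 1.42. Psmg1, beyond Ets2, rose 1.51-fold in the HIP and 1.46-fold in the EC, whereas the ETS factor gene Erg, before Ets2, had folds of 1.22 and 1.05 that were not called. Around Sim2 and Ripply3, Hlcs had folds of 1.37 (HIP) and 1.53 (EC) and was called in the EC (adjusted p = 0.0767 and 0.0174 with edgeR). Pigp had folds of 1.39 (HIP) and 1.40 (EC) and was called in the HIP (adjusted p = 0.0379 and 0.0643 with edgeR). Chaf1b, Clic6 and Ripk4 had folds from 1.25 to 2.75, of which 0 were called with all mice by edgeR. Without replicate 3 Ripk4 was called in the EC (fold 3.21, adjusted p = 0.0152, edgeR). Setd4, beyond Runx1, had folds of 1.40 (HIP) and 1.53 (EC) and was called only in the HIP without replicate 3 (adjusted p = 0.0442, edgeR). B230307C23Rik, past the Zbtb21 end used here for the segment, had folds of 1.33 (HIP) and 1.51 (EC) and was called in the EC (adjusted p = 0.145 and 0.0451 with edgeR). In the authors' account the Mmu16 piece of the minichromosome runs on to the telomere, so this gene also has an extra copy. Without replicate 3 the folds of Psmg1 were 1.59 (HIP) and 1.53 (EC), that of Hlcs was 1.63 (EC) and that of Pigp 1.47 (HIP).

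The other transcription factor genes of the segment, Olig1, Olig2, Bach1 and Erg, gave a further comparison. Olig1 and Olig2, bHLH factors of the oligodendrocyte lineage, rose in both regions, Olig1 by 1.43-fold and 1.45-fold (adjusted p = 0.0167 and 0.00519 with edgeR) and Olig2 by 1.43-fold and 1.48-fold (adjusted p = 0.0383 and 0.00680 with edgeR). Bach1, a repressor of haem oxygenase, rose 1.37-fold in the HIP (adjusted p = 0.0335, edgeR) and had a fold of 1.33 in the EC (adjusted p = 0.101, edgeR). Without replicate 3 edgeR called these 3 genes in both regions, with adjusted p from 0.00150 (Olig1) to 0.0342 (Olig2) in the HIP and from 0.000448 (Olig1) to 0.00141 (Bach1) in the EC. The summed level of 5 oligodendrocyte markers overlapped between the genotypes, from 5705 to 7833 CPM in wt and from 5953 to 9010 CPM in Ts65Dn in the HIP, and from 1248 to 2365 CPM and 1435 to 2527 CPM in the EC.

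Relatives, partners and targets of the 7 proteins were taken from lists that were chosen with earlier results of these data known. Their counts are to be read against all genes, of which an unadjusted p under 0.05 marked 7.23% (HIP) and 9.01% (EC) as higher, with 7.59% (HIP) and 9.97% (EC) as lower. DESeq2 called 1.66% and 1.93% (HIP) and 3.25% and 4.18% (EC) of all genes higher and lower. Of 23 other ETS genes, among them Erg of the segment, 17 (HIP) and 16 (EC) were tested, and 0 were called in either by edgeR or DESeq2. At an unadjusted p under 0.05, 2 were higher in the HIP, one of them Erg, and 0 in the EC. Their median log2 fold change was 0.03 (HIP) and 0.01 (EC), against 0.00 over all genes in both. Among 7 partners and co-regulators of GABP, with the partner subunits Gabpb1 and Gabpb2, 0 were called by either tool in either region, with 2 lower in the HIP and 0 in the EC at an unadjusted p under 0.05. Gabpb2, chosen after its values were seen, had a fold of 0.866 in the HIP and was called lower without replicate 3 (adjusted p = 0.0208, edgeR), where edgeR called 0.762% of all genes lower, against 1.37% in the EC.

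Among 19 mitochondrial genes known or likely to be driven by GABP, 2 rose in the HIP by edgeR, Atp5j and Tfb1m, and 1 in the EC, Atp5j, with a list median of 0.01 (HIP) and -0.01 (EC). Both have an extra copy in Ts65Dn, Atp5j in the Mmu16 segment and Tfb1m, a methyltransferase of mitochondrial ribosomal RNA, on chromosome 17. Tfb1m had folds of 1.53 (adjusted p = 0.0299, edgeR) and 1.41 (adjusted p = 0.0552, edgeR), and without replicate 3 both genes were called in both regions. At an unadjusted p under 0.05, 5 were higher and 3 lower in the HIP, with 4 and 1 in the EC. DESeq2 called both genes higher in both regions and 1 gene lower in each, Cox7b in the HIP (fold 0.894, adjusted p = 0.0813 with edgeR) and Tomm20 in the EC (fold 0.885, adjusted p = 0.0888 with edgeR). Cox7b encodes a subunit of cytochrome c oxidase and Tomm20 a receptor for protein import at the outer mitochondrial membrane.

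Of 6 RUNX relatives and partners, 5 were tested in each region and 0 were called by edgeR (1 lower in the HIP and 0 in the EC at an unadjusted p under 0.05), while DESeq2 called 1 lower in the HIP, Cbfb, the partner of Runx1 (fold 0.847, adjusted p = 0.107 with edgeR). Of 13 bHLH-PAS genes, which include the Sim2 partner Arnt, 12 were tested and 0 were called by edgeR. At an unadjusted p under 0.05, 2 were higher and 1 lower in the HIP and 2 higher and 3 lower in the EC, and DESeq2 called 1 lower, Hif1a in the EC (fold 0.865, adjusted p = 0.0521 with edgeR). Of 14 PRDM genes, 11 were tested and 0 were called by either tool, with 0 in the HIP and, in the EC, 1 higher and 2 lower at an unadjusted p under 0.05. Of 9 RIPPLY relatives and partners, 7 (HIP) and 6 (EC) were tested and 0 were called by either tool, with 2 higher and 1 lower in the HIP and 0 in the EC at an unadjusted p under 0.05. Among them Tbx1, the T-box factor bound by Ripply3, had a fold of 0.503 in the HIP and was called lower without replicate 3 (adjusted p = 0.0235, edgeR), a gene chosen after its values were seen.

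Of 31 ZBTB genes, all tested, 1 fell in the EC by edgeR, Zbtb33 (fold 0.819, adjusted p = 0.0475 with edgeR, and 0.0352 without replicate 3), which encodes the methyl-DNA binding factor Kaiso. DESeq2 called it and Zbtb41 (fold 0.802, adjusted p = 0.0538 with edgeR) lower in the EC and 0 in the HIP. At an unadjusted p under 0.05, 0 were higher and 9 lower in the EC, with 2 and 4 in the HIP. The median log2 fold change of the ZBTB list was -0.05 (HIP) and -0.08 (EC), and its members ran from -0.32 to 0.19 over both regions.

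Levels were also compared between the regions. In wt mice, with a term for each mouse, Gabpa was lower in the EC than in the HIP (EC over HIP 0.676, 95% CI 0.630 to 0.726, adjusted p = 2.27e-06 with edgeR) and Ets2 was higher (1.32, 1.23 to 1.41, adjusted p = 1.85e-05 with edgeR). Prdm15 was lower in the EC by a smaller margin (0.881, 0.802 to 0.968, adjusted p = 0.0246 with edgeR), and this call was lost without wt replicates 1, 2 or 3, without the mouse term and with DESeq2. In Ts65Dn mice the ratio was 0.704 for Gabpa and 1.31 for Ets2 (adjusted p = 0.000174 and 4.74e-05 with edgeR). Sim2 entered this fit through its HIP libraries, so its 4 to 12 counts in the Ts65Dn HIP and 1 to 4 in the EC are given as a description. With Sim2 left aside, 3 of 5 tested genes differed between regions in wt, where 59.5% of all genes did, and 2 of 6 in Ts65Dn, where 50.5% did. These shares are near or below those of all genes and are no result about the transcription factor genes.

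The effect of genotype was then compared between the regions in a single fit. The ratio of the EC fold to the HIP fold was 1.03 (0.913 to 1.17) for Gabpa, 0.984 (0.901 to 1.07) for Ets2, 1.02 (0.890 to 1.17) for Prdm15 and 0.977 (0.864 to 1.10) for Zbtb21. For the scarce genes the intervals were wide, at 1.07 (0.683 to 1.68) for Runx1, 1.33 (0.696 to 2.55) for Ripply3 and 0.805 (0.360 to 1.80) for Sim2. With edgeR 0 of the 7 had an interaction past the threshold and 0 had an unadjusted p under 0.05, with 0 also by DESeq2 and 0 by edgeR without Ts65Dn replicate 3, whereas 4.17% of the 19270 genes tested had an unadjusted p under 0.05. For the 4 abundant genes the intervals leave room for a difference between regions of at most about 1.17 times in either direction.

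Across the 24 libraries the genes moved together to different degrees. Spearman's rho of log2 CPM was 0.85 between Prdm15 and Zbtb21, 0.78 between Gabpa and Zbtb21 and 0.70 between Gabpa and Prdm15, but 0.10 between Gabpa and Ets2 and 0.06 between Gabpa and Runx1. These values describe libraries that share mice, regions and genotypes. Of 16592 genes, those with the most similar pattern to Ets2 were Tfb1m, App and Rcan1 (rho of 0.92 for each), and 7 of its 10 nearest were in the segment. Scaf4, Dnajc28 and Setd4 were nearest to Prdm15 (0.88, 0.87 and 0.86), and Scaf8, Dnajc28 and Setd4 to Zbtb21 (0.91, 0.91 and 0.87), with 8 and 6 of the 10 nearest in the segment. Scaf8, like Tfb1m, lies on the Mmu17 part of the minichromosome and also has an extra copy, which these segment counts leave out. Cttn, Tmem210 and N6amt1 were nearest to Gabpa (0.92, 0.91 and 0.91), with 3 of 10 in the segment. Runx1 had no close match, with rho of at most 0.63 (Cryzl2, Gm6170 and Grap) and 0 of 10 in the segment.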

How the data were processed

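RNA-Seq counts of 24 libraries were used, from the HIP and EC of 6 Ts65Dn and 6 wt mice, with genotype, region and number taken from the labels. The authors aligned single-end reads to GRCm38 with Hisat2 and deposited raw counts per gene made with HTSeq-count, without normalization. The strand and overlap settings of the counting are not given in the sources used here. The methods name a kit that removes ribosomal RNA and the labels a polyA kit, so the enrichment is uncertain. All count columns were used (0 were left out) and 0 rows named no gene. Positions and names came from GENCODE vM21, which held 99.6% of the identifiers. The authors' tables of their own comparisons (log2 fold changes, p-values and scores) were not used.

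Counts were tested with edgeR 4.0.16 (R 4.3.3), with filterByExpr, TMM scaling, the quasi-likelihood test and Benjamini-Hochberg adjustment over all genes tested (17355 in the HIP and 17049 in the EC), at an adjusted p under 0.05. Fold changes were tested against 1.5 by an offset in the same fit, and 95% intervals came from standard errors. Comparisons between regions and the interaction had a term for each mouse. Levels relative to the segment and genes outside the filter were tested with two-sided exact permutation tests of log2 CPM (prior count 2) (scipy 1.17.1). Gabpa against Atp5j and Zbtb21 against C2cd2, the pairs whose annotated spans overlap, were tested in the same way, a comparison added after seeing the data. DESeq2 1.42.0 was an alternative. The tests were checked on simulated counts.

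Mice were numbered 1 to 6 in both genotypes, but the correlation of deviations within same-numbered pairs ran from -0.20 to 0.17 and passed 0.1 in 3 of 12 pairs, so the numbers did not pair the mice. The genes named were the 7 genes, 4 other transcription factors of the segment, the nearest tested genes on either side, the 3 genes with the most similar pattern and the genes called in each list, of at most 4. The 7 genes, lists and rules were chosen with earlier results of these data known. P-values measure the spread between these mice.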

Additional observations from a re-analysis of the deposited data

Results flagged for a closer look

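In 2 of the 28 sets of 6 libraries of 1 gene, genotype and region, 1 library lay far from the others for its set. Chance gives such a gap in about 1 of 20 sets. Gabpa in the Ts65Dn EC was 19.3 CPM in replicate 3, while the other 5 mice lay between 28.4 and 33.5 CPM. This is the mouse whose segment was at the wt level, and the fold of Gabpa in the EC is given above with and without it. Runx1 in the Ts65Dn EC was 1.72 CPM in replicate 4, while the other 5 mice lay between 0.937 and 1.203 CPM, all of them low counts.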

How the results depend on the processing

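By edgeR 0 genes (HIP) and 1 gene (EC) were called higher in Ts65Dn, and by DESeq2 3 and 2. When each mouse was left out, edgeR called 0 to 3 (3 without Ts65Dn replicate 3) and 0 to 2 (2 without Ts65Dn replicates 3 or 6). The 2 without replicate 6 include Ripply3, which entered through its Ts65Dn level. A replicate block gave 0 and 0 and removed the call of Ets2 in the EC (adjusted p = 0.0683 with edgeR). The replicate numbers did not pair the mice. Genes apart from 1.5-fold numbered 3 (HIP) and 2 (EC) and fell to 1 and 0 when adjusted over the segment. With 1 mouse left out they ranged from 1 to 4 and from 0 to 3, with 1 and 0 without Ts65Dn replicate 3. Under the replicate block they numbered 3 and 3. The other counts, of genes differing between regions, in the interaction and from the segment, moved by no more than 1.5 times under every alternative run. Of 159 values of single genes under alternatives other than a left-out mouse, 150 kept their direction and side of the threshold, 5 lost a call, 4 gained one and 0 changed sign. With 1 mouse left out, 7 of 418 values changed sign, all of them uncalled and close to 0 on the log2 scale. With 1 mouse left out, these log2 values ran from -0.0063 (Ts65Dn replicate 5) to 0.23 for the HIP fold of Runx1, from -0.13 (wt replicate 6) to 0.14 for its wt region difference, and in the interaction from -0.054 to 0.0070 (wt replicate 4) for Ets2, from -0.048 (Ts65Dn replicate 4) to 0.30 for Runx1, from -0.034 (Ts65Dn replicate 6) to 0.067 for Prdm15 and from -0.064 to 0.015 (Ts65Dn replicate 5) for Zbtb21. The cause of these changes was not tested. Depth limits Runx1, Ripply3 and Sim2, which had at most 52 counts in any library.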
